A study of Mus musculus with 7 samples.

Results

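The genes of methyl-CpG binding proteins, of close relatives of these proteins and of CTCF are described here by their RNA levels in mouse neural stem cells. The 7 genes were taken by symbol (Mbd1, Mbd2, Mbd3, Zbtb4, Zbtb33, Zbtb38 and Ctcf), all 7 were found among the 18145 genes of the deposited table, and all 7 passed the filter on low values, as did 18134 genes of the table. RNA was taken at the first passage from 2 lines labelled Tet-TMut (TMut), 2 lines labelled Tet-TFoCa (TFoCa) and 3 wild-type (WT) lines, and the design text gives 1 line per library. It spells the second genotype Tet-FoCa. The study asked what hydroxymethylated DNA does in these cells as opposed to formylated and carboxylated DNA, but the alleles behind each genotype, the strain, the sex of the lines and any driver of recombination are not given in the sources used here. Both mutant genotypes are compared with the same 3 WT libraries, so their differences from WT are not independent of each other.

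DNA methylation at CpG is read by several protein families. MBD proteins carry a methyl-CpG binding domain, the Kaiso family (ZBTB33, ZBTB4 and ZBTB38) binds methylated CpG through zinc fingers, and CTCF is a zinc finger protein whose binding to many sites is blocked when a CpG in the site is methylated. MBD2 and MBD3 are alternative subunits of the NuRD complex, which combines histone deacetylation with nucleosome remodelling. Mammalian MBD3 has lost most of the preference for methylated DNA. TET enzymes oxidise 5-methylcytosine, so the DNA mark that these proteins read is the substrate of the enzymes named in the genotype labels.

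Of the 7 genes, 1 was higher and 2 were lower in TMut than in WT at an adjusted p under 0.05 (limma, Benjamini-Hochberg over all genes tested), where 38.8% of all genes tested passed. In TFoCa, 1 was higher and 1 was lower than in WT, where 8.77% of all genes passed. Between TMut and TFoCa, 1 was higher and 1 was lower in TMut, where 35.8% of all genes passed. Over all genes, 18.4% were higher and 20.4% lower in TMut than in WT, 5.25% higher and 3.52% lower in TFoCa than in WT, and 17.3% higher and 18.5% lower in TMut than in TFoCa. Ctcf was lower in both mutant genotypes and Zbtb4 was higher in both, Zbtb33 was lower in TMut than in both other genotypes, and Mbd3 was higher in TMut than in TFoCa. Mbd1, Mbd2 and Zbtb38 did not pass in any comparison. In TFoCa versus WT, 0 of the 7 passed without any 1 of the WT libraries and 1 without TFoCa replicate 2, and in TMut versus TFoCa 0 passed without TMut replicate 2 and 1 without any 1 of the TFoCa or WT libraries. The median log2 fold change of the 7 genes was 0.10 in TMut versus WT, 0.02 in TFoCa versus WT and -0.06 in TMut versus TFoCa, beside 0.00, -0.02 and 0.00 over all genes tested.

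**Figure D1:**
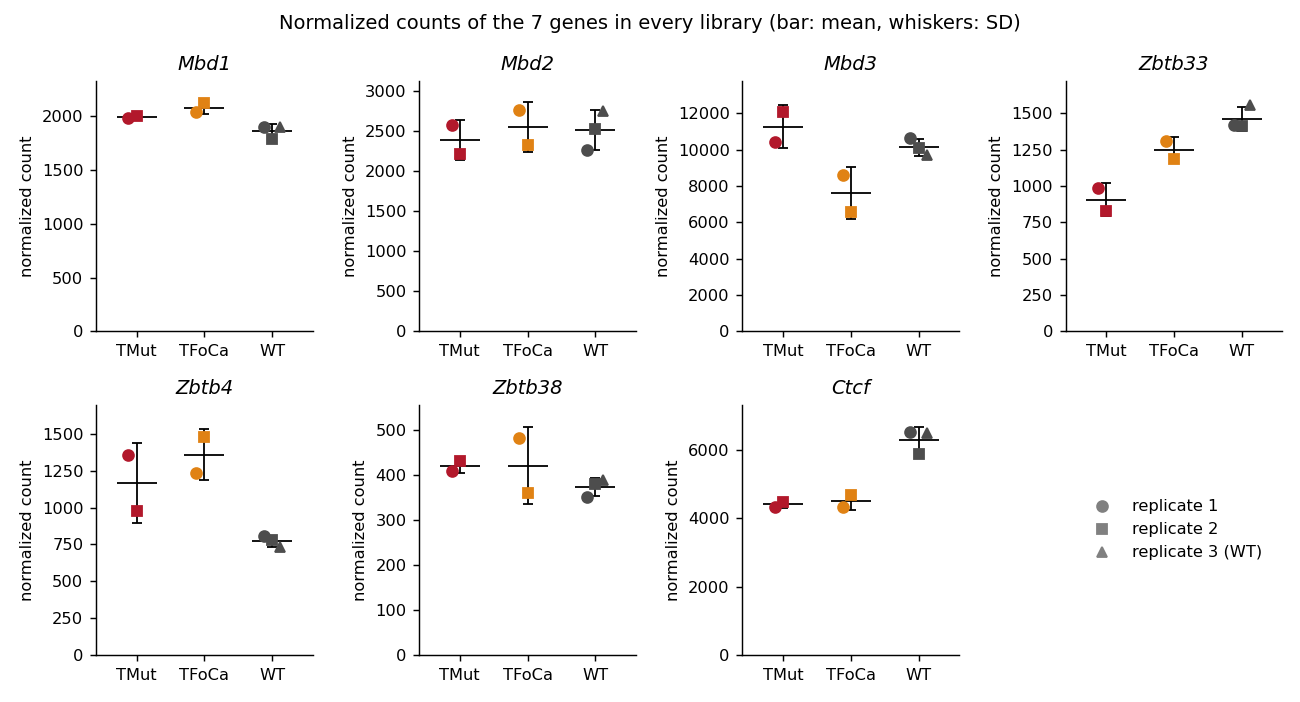
Normalized count (reads divided by the size factor of the library) of each of the 7 genes in every library, with TMut, TFoCa and WT from left to right; the horizontal bar is the mean, the whiskers are the SD, and the marker shape gives the replicate number. For Ctcf the mutant libraries sit between 4329 and 4673 and the WT libraries between 5891 and 6526, and for Zbtb4 every mutant library lies above every WT library.

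The promoters of the 4 genes that passed in some comparison are shown for their CpG content. They run from 250 bases before to 50 bases after the transcript start, are taken from RefSeq on build GRCm38.p6 (the submitters' processing notes name mm39), and are written 5′ to 3′ on the strand of the gene with each CG in capitals. The Ctcf promoter lies at chr8:105636288-105636587 (plus strand), that of Zbtb33 at chrX:38189543-38189842 (plus strand), that of Zbtb4 at chr11:69765662-69765961 (plus strand) and that of Mbd3 at chr10:80399482-80399781 (minus strand).
Ctcf: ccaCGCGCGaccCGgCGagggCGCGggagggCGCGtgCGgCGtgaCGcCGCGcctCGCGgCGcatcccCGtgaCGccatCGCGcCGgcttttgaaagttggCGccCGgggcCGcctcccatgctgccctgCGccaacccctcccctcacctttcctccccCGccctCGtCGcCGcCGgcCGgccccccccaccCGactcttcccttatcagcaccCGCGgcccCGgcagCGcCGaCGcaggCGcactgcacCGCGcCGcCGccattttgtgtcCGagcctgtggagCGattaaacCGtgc
Zbtb33: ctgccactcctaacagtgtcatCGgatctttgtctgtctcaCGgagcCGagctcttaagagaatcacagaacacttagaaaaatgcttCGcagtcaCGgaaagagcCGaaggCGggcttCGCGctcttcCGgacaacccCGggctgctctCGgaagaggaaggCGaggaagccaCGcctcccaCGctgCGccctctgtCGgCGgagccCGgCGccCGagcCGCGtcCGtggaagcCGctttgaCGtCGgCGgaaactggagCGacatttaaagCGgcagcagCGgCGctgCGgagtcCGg
Zbtb4: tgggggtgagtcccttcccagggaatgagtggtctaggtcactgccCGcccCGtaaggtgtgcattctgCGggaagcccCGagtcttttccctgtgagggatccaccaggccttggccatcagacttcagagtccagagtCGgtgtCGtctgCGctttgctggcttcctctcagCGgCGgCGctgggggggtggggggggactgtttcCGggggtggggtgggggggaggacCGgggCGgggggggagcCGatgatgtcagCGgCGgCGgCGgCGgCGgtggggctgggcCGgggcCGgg
Mbd3: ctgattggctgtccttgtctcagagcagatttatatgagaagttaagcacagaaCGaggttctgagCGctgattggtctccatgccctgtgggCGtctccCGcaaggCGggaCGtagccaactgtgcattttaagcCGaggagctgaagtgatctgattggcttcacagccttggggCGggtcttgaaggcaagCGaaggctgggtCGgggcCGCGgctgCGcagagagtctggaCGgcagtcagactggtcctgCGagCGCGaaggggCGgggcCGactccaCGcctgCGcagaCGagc

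The Ctcf promoter held 47 CG, the Zbtb33 promoter 34, and the Zbtb4 and Mbd3 promoters 22 each, against a median of 7 and an upper quartile of 20 over 32851 promoters of 300 bases. By this count the Ctcf promoter had more CG than 98.6% of them, the Zbtb33 promoter more than 92.3%, and the other two more than 76.9%. RefSeq gives 3 promoters of Zbtb38, with 8, 41 and 25 CG. The motif CGCG, a pair of neighbouring CpG of the kind Kaiso binds when methylated, occurred 9 times in the Ctcf promoter (overlapping matches included), 2 times each in those of Zbtb33 and Mbd3 and 0 times in that of Zbtb4, and 38% of all promoters held it. The motif TCCTGCNA, to which Kaiso binds without methylation, was found 1 time in the Mbd3 promoter and 0 times in the other 3 on either strand, and 4.96% of all promoters held it. No methylation was measured in these files, so the CG counts describe the sequence only.

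Each library held between 33340167 and 62545457 reads assigned to genes. Behind the values below stand 296 to 599 reads per library for Zbtb38, which had the fewest, and 5404 to 15897 for Mbd3, which had the most. RNA of Tet1, Tet2 and Tet3 was present in every library, from 1262 to 2779 normalized counts of Tet1 in TMut, 1355 to 1367 in TFoCa and 1546 to 1638 in WT. Tet2 had 1364 to 1493 in TMut, 2117 to 4237 in TFoCa and 1526 to 1791 in WT, without overlap between genotypes, and Tet3 had 4119 to 5766 in TMut, 6159 to 7283 in TFoCa and 5484 to 6642 in WT. Summed normalized counts of 12 neural stem cell markers were 130851 to 156175 in TMut, 156439 to 168704 in TFoCa and 185272 to 190834 in WT. In TMut relative to WT 1 of the 12, Vim, rose (log2 fold change 0.66) and 10 fell, where 18.4% of all genes rose and 20.4% fell. The median over the 12 was -2.29, and the sums fell by less than this median. Sox2, a defining marker, had 6298 to 6546 in TMut, 11738 to 14882 in TFoCa and 17594 to 22162 in WT. The sums of 13 mesenchymal and fibroblast markers were 307254 to 398295 in TMut, 430250 to 488886 in TFoCa and 157422 to 173385 in WT. The sums of 8 neuronal markers were 8486 to 14952 in TMut, 46167 to 46268 in TFoCa and 59989 to 63934 in WT. Summed counts of 10 pluripotency markers were 12299 to 44933 in TMut, 1146 to 1528 in TFoCa and 14149 to 29326 in WT. Those of 19 replication and S phase genes were 92590 to 103687 in TMut, 53601 to 72518 in TFoCa and 98874 to 109128 in WT. Summed counts of 6 astrocyte markers were 7479 to 8068 in TMut, 8200 to 9939 in TFoCa and 8321 to 8787 in WT, and those of 8 oligodendrocyte lineage markers were 1836 to 1981 in TMut, 4926 to 5682 in TFoCa and 7464 to 8274 in WT. In TMut the astrocyte sums rest mostly on Gja1. It had 6848 and 7727 normalized counts in TMut, 4910 and 7147 in TFoCa, and 4294, 3969 and 4584 in WT. Gja1 rose in TMut relative to WT (log2 fold change 0.77), while the other 5 astrocyte markers fell, with a median over the 6 of -3.10. Without TMut replicate 2, 0 of the 6 rose and 3 fell, and without WT replicate 3, 3 fell. All 8 neuronal and 6 of the 8 oligodendrocyte lineage markers fell in TMut as well, where 18.4% of all genes rose and 20.4% fell. In TFoCa relative to WT 11 of the 13 mesenchymal markers rose, and 10 of the 10 pluripotency and 12 of the 19 replication genes fell. The mesenchymal, pluripotency and replication counts were lower under some alternatives. Over all alternatives the medians of these lists ranged from 1.35 to 1.66, from -4.38 to -3.56 and from -0.83 to -0.51 log2 units. Also in TFoCa, 2 neural stem cell markers and 1 astrocyte marker fell, and 1 oligodendrocyte lineage marker rose. The neural stem cell and oligodendrocyte lineage counts were likewise lower under some alternatives. Of all genes, 5.25% rose and 3.52% fell in TFoCa. The sums of 6 endoderm markers were 3196 to 6158 in TMut, 3472 to 5655 in TFoCa and 4760 to 5644 in WT. No measured marker of these lists was at 0 in every library of a genotype. The astrocyte marker S100b and the endoderm marker Afp were listed too but are absent from the deposited table, so their levels are not known. The part of these differences in the results below was not tested, and in bulk RNA fewer cells of a type and less RNA per cell cannot be told apart.

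Levels of different genes were compared per length, as normalized counts per kb of exon, with the union of annotated exons in GENCODE M21. On this scale Mbd3 was the most abundant of the 7, with 5661 ± 599 in TMut and 3818 ± 719 in TFoCa (SD, n = 2 each) and 5096 ± 237 in WT (SD, n = 3). Ctcf followed with 907 ± 19.8 per kb in TMut, 926 ± 50.1 in TFoCa and 1297 ± 73.7 in WT. Below it came Mbd2, at 743 ± 77.8 per kb in TMut, 791 ± 96.6 in TFoCa and 781 ± 76.4 in WT. In each genotype the libraries of these 3 genes did not overlap with one another on this scale. The order of Ctcf and Mbd2 depends on the length used: per kb of the longest coding transcript, the mean of Ctcf was 1166 in TMut, 1190 in TFoCa and 1667 in WT, and that of Mbd2 was 1223 in TMut, 1302 in TFoCa and 1285 in WT, so that Mbd2 stood above Ctcf in both mutant genotypes. Mbd3 had the highest mean of the 7 by either length in every genotype.

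Zbtb33 and Mbd1 were neighbours in WT, where Zbtb33 had 276 to 304 and Mbd1 266 to 284 normalized counts per kb, and the ranges overlapped. In TMut Zbtb33 had 161 to 192 per kb, below Mbd1 at 296 to 299, and in TFoCa it had 231 to 256, below Mbd1 at 305 to 317. Zbtb4 had 120 to 167 per kb in TMut, 153 to 183 in TFoCa and 90.3 to 99.4 in WT, so that it overlapped with Zbtb33 in TMut only. Zbtb38 was the least abundant, with 34.9 to 36.7 per kb in TMut, 30.7 to 41.1 in TFoCa and 30.0 to 33.1 in WT. The place of Mbd1 also depends on the length used, since its exon union is 6703 bases and its longest coding transcript 3920 bases: by the transcript it had 476 per kb in WT, above Zbtb33 at 286.

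**Figure D2:**
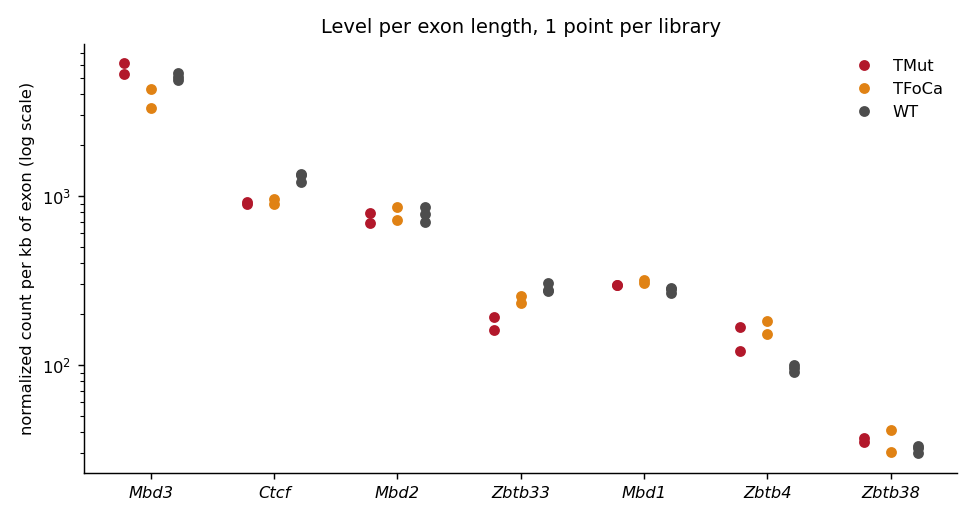
Normalized count per kb of annotated exon (log axis) for the 7 genes, 1 point per library, with TMut, TFoCa and WT from left to right within each gene and genes ordered by their WT mean. Mbd3 stands at 3310 to 6084 in all libraries and Zbtb38 at 30.0 to 41.1.

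Among the MBD genes, Mbd3 differed between the mutant genotypes and Mbd1 and Mbd2 did not pass. Mbd3 had 10408 and 12090 normalized counts in TMut libraries, 8597 and 6577 in TFoCa libraries, and 10621, 10076 and 9683 in WT libraries. Both TFoCa libraries lay below every other library, and the TMut libraries overlapped with WT. Mbd3 was higher in TMut than in TFoCa by 0.58 ± 0.15 log2 units (SE; 95% confidence interval 0.24 to 0.92, adjusted p = 0.0199), which is 1.49-fold. Fold changes throughout are on the log2(normalized count + 1) scale. The call was lost without TMut replicate 2 (0.47, adjusted p = 0.115), without TFoCa replicate 2 (0.38, adjusted p = 0.0574) and when only the libraries of both genotypes were modelled (adjusted p = 0.0723). Between TFoCa and WT the Mbd3 log2 fold change was -0.43 ± 0.13 (interval -0.74 to -0.12, adjusted p = 0.0895), and it passed only without TFoCa replicate 1 (-0.62, adjusted p = 0.028). Between TMut and WT it was 0.15 ± 0.13 (interval -0.16 to 0.46, adjusted p = 0.411).

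Mbd2, which recruits NuRD to methylated DNA, had 2565 and 2211 normalized counts in TMut, 2762 and 2322 in TFoCa, and 2259, 2519 and 2751 in WT. The 3 genotypes overlapped for Mbd2. Its log2 fold change was -0.07 in TMut versus WT (interval -0.38 to 0.24, adjusted p = 0.701), 0.02 in TFoCa versus WT (interval -0.29 to 0.33, adjusted p = 0.954) and -0.09 in TMut versus TFoCa (interval -0.43 to 0.25, adjusted p = 0.662). The ratio of Mbd3 to Mbd2, each per kb of exon, was 6.56 and 8.84 in TMut, 5.04 and 4.58 in TFoCa, and 7.60, 6.47 and 5.69 in WT. Both TFoCa libraries thus had the lowest ratios of these alternative NuRD subunits, while TMut and WT overlapped.

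Mbd1, which also carries CXXC zinc fingers and recruits the ATF7IP and SETDB1 repressors, had 1985 and 2004 normalized counts in TMut, 2041 and 2123 in TFoCa, and 1906, 1786 and 1899 in WT. Every mutant library lay above every WT library, and the groups of 5 of the 7 genes did not overlap in TMut versus WT, where 67.1% of all genes tested did not overlap, and of 5 in TFoCa versus WT, where the share was 45.2%. In TMut versus TFoCa 3 of the 7 (Mbd1, Mbd3 and Zbtb33) did not overlap, beside 67.5% of all genes. The difference of Mbd1 was small: its log2 fold change was 0.10 ± 0.09 in TMut versus WT (interval -0.12 to 0.32, adjusted p = 0.438) and 0.16 ± 0.09 in TFoCa versus WT (interval -0.06 to 0.38, adjusted p = 0.333). In TMut versus TFoCa it was -0.06 ± 0.10 (interval -0.30 to 0.18, adjusted p = 0.665).

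The 13 NuRD genes gave 2 higher and 1 lower in TMut than in WT (median log2 fold change -0.03), 0 higher and 1 lower in TFoCa than in WT (median -0.16), and 5 higher and 1 lower in TMut than in TFoCa (median 0.14). Over all genes tested, 18.4% were higher and 20.4% lower in TMut than in WT, 5.25% and 3.52% in TFoCa than in WT, and 17.3% and 18.5% in TMut than in TFoCa. The balance in TMut versus WT depended on the method, with 2 higher and 4 lower after quantile normalization (median -0.15), and 4 higher and 1 lower with edgeR TMM factors, the edgeR test, limma-voom or DESeq2. DESeq2 gave 3 lower genes in TFoCa versus WT, where quantile normalization or a model of the compared genotypes gave 2, and such a model gave 2 higher genes in TMut versus TFoCa. In TMut versus WT the count of higher genes was 4 without TMut replicate 1, and the count of lower genes was 2 without TMut replicate 2. In TFoCa versus WT 2 were lower without either TMut library, and in TMut versus TFoCa 2 were higher without TMut replicate 2. Rbbp7, a histone binding subunit, had 14818 and 15962 normalized counts in TMut, 7921 and 7706 in TFoCa, and 11612, 9637 and 9906 in WT. It was higher in TMut than in WT by 0.57 ± 0.11 log2 units (adjusted p = 0.00516) and than in TFoCa by 0.98 ± 0.12 (adjusted p = 0.002), and both TMut libraries exceeded all others. Hdac1, which encodes a histone deacetylase, was higher in TMut than in TFoCa by 0.76 ± 0.10 (adjusted p = 0.00263), and than in WT by 0.48 ± 0.09 (adjusted p = 0.00637, and 0.0527 without TMut replicate 2). Chd5, a remodeller known from neurons, had 197 and 249 normalized counts in TMut, 1453 and 706 in TFoCa, and 615, 962 and 791 in WT. It fell by 1.81 log2 units in TMut relative to WT (SE 0.32, adjusted p = 0.00392), beside the lower sum of neuronal markers in the same libraries. Rbbp4, which with Rbbp7 belongs to several histone complexes, was the 1 gene that fell in TFoCa (-0.43 ± 0.09, adjusted p = 0.0246), and it lost the call without any 1 of the WT libraries (adjusted p up to 0.101). Both TFoCa libraries also had the lowest sums of replication genes.

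Of 7 genes encoding MBD1 partners or proteins of the same heterochromatin pathway, 0 rose and 2 fell in TMut relative to WT (median 0.12), and 0 rose and 1 fell in TFoCa (median -0.32). Of all genes, 18.4% rose and 20.4% fell in TMut, and 5.25% rose and 3.52% fell in TFoCa. The last count of the list was 2 without TFoCa replicate 2 and 3 with DESeq2. The genes that fell in TMut were Cbx5 (-0.42 ± 0.10, adjusted p = 0.0129), which encodes heterochromatin protein HP1 alpha, and Atf7ip (-0.39 ± 0.10, adjusted p = 0.0203). Without TMut replicate 2 or WT replicate 3 neither passed, and Atf7ip was also lost without WT replicate 2, with adjusted p up to 0.103 for Cbx5 and up to 0.126 for Atf7ip. The gene that fell in TFoCa was Chaf1a (-0.56 ± 0.12, adjusted p = 0.0322), a chromatin assembly subunit. Chaf1a lost the call without TFoCa replicate 1 and without each WT library (adjusted p up to 0.092). It was higher in TMut than in TFoCa by 0.67 ± 0.13 (adjusted p = 0.00844), as 1 of 4 genes of the list that were, against 1 that was lower (median 0.61), where 17.3% of all genes were higher and 18.5% lower. Only 1 of these higher genes passed without TMut replicate 2. The lower gene was Atf7ip (-0.36 ± 0.11, adjusted p = 0.0395), which passed with 1 library left out only when that was TFoCa replicate 1. The count of lower genes was 2 after quantile normalization and 0 in a model of these genotypes alone.

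Among 10 further genes with an MBD, SRA or TAM domain, or encoding the methyl-CpG binding factor ZFP57, 0 rose and 3 fell in TMut relative to WT (median -0.15), where 18.4% of all genes rose and 20.4% fell. Setdb1 is in this list and among the MBD1 partners. The count of 3 was 1 without TMut replicate 1, TMut replicate 2, WT replicate 2 or WT replicate 3. Baz2b, a bromodomain and TAM domain gene, had 1457 and 1211 normalized counts in TMut, 2551 and 2891 in TFoCa, and 2280, 2748 and 2899 in WT. It fell by 0.98 log2 units in TMut relative to WT (SE 0.14, adjusted p = 0.00163) and fell by 1.03 relative to TFoCa (SE 0.16, adjusted p = 0.00352), and both TMut libraries lay below all others. Mbd6 (-0.54 ± 0.14, adjusted p = 0.0172) and Mbd5 (-0.36 ± 0.12, adjusted p = 0.0492) were the other 2 in TMut versus WT. Mbd6 did not pass without TMut replicate 1, TMut replicate 2, WT replicate 2 or WT replicate 3 (adjusted p up to 0.0865), and Mbd5 did not pass without any TMut or WT library (adjusted p up to 0.142). In TFoCa 0 genes of the list rose and 1 fell (median -0.04), where 5.25% of all genes rose and 3.52% fell. That gene was Uhrf1, which brings maintenance methylation to replicated DNA, with 9423 and 10356 normalized counts in TMut, 4828 and 6476 in TFoCa, and 11893, 8649 and 9066 in WT. Uhrf1 fell by 0.81 log2 units in TFoCa relative to WT (SE 0.17, adjusted p = 0.0306), with the call lost without TFoCa replicate 1 or any WT library (adjusted p up to 0.0915). In TMut relative to TFoCa 1 gene of the list rose and 2 fell (median 0.00), where 17.3% of all genes rose and 18.5% fell. In this comparison 1 fell without either TMut library, TFoCa replicate 1, WT replicate 2 or WT replicate 3, and in a model of these genotypes alone. Uhrf1 was the one that rose (0.82 ± 0.19, adjusted p = 0.0145, and up to 0.0796 without TMut replicate 2 or TFoCa replicate 1).

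**Figure D3:**
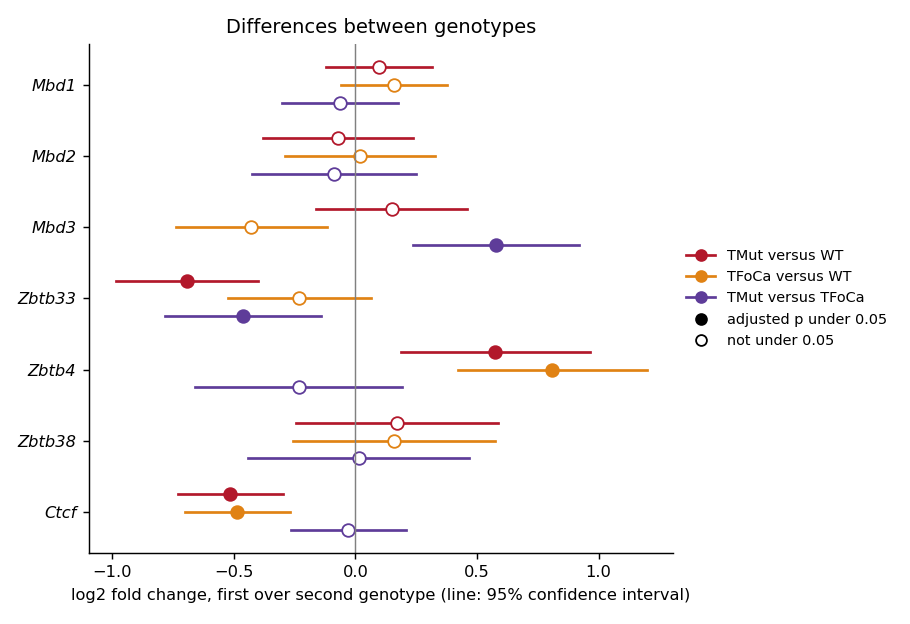
Log2 fold change of each gene in the 3 comparisons, first genotype over second, with the 95% confidence interval from limma over all 7 libraries; filled points have an adjusted p under 0.05. Ctcf lies at -0.51 and -0.49 in the mutant genotypes against WT and at -0.03 between them, and the intervals of Mbd1, Mbd2 and Zbtb38 include 0 in every comparison.

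In the Kaiso family, Zbtb33 was lower in TMut and Zbtb4 was higher in both mutant genotypes. Zbtb33 encodes Kaiso itself and had 986 and 827 normalized counts in TMut, 1309 and 1184 in TFoCa, and 1419, 1412 and 1556 in WT. The 3 genotypes did not overlap: TMut was lowest, TFoCa lay between and WT was highest. Zbtb33 fell by 0.69 log2 units in TMut relative to WT (SE 0.13, interval -0.99 to -0.40, adjusted p = 0.00434), to 62.0% of the WT mean, and passed under all 18 alternative settings. Its log2 fold change in TFoCa versus WT was -0.23 ± 0.13 (interval -0.52 to 0.06, adjusted p = 0.301). It fell by 0.46 in TMut relative to TFoCa (SE 0.14, interval -0.78 to -0.14, adjusted p = 0.0344).

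That last call depended on the libraries and the fit. It was lost without TMut replicate 2 (-0.34, adjusted p = 0.172) and without TFoCa replicate 1 (-0.39, adjusted p = 0.102). Leaving out WT replicate 1, WT replicate 2 or WT replicate 3 gave adjusted p values of 0.0539, 0.0691 and 0.0606. Quantile normalization (-0.37, adjusted p = 0.0642) and a model of these 4 libraries alone (adjusted p = 0.124) lost it too. Zbtb33 lies on chromosome X, and the lines differed in RNA from the Y chromosome. Eif2s3y, a Y-linked gene, had 1982 and 1606 normalized counts in TMut, 65.1 and 3225 in TFoCa, and 678, 409 and 421 in WT, while Xist had at most 25.2 in any library. The 2 TFoCa libraries had the lowest and the highest Eif2s3y, and the part of the sex chromosomes in the Zbtb33 values was not tested.

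Zbtb4, which encodes a Kaiso-like repressor, had 1359 and 977 normalized counts in TMut, 1239 and 1482 in TFoCa, and 806, 781 and 733 in WT. All 4 mutant libraries lay above all WT libraries, and the 2 mutant genotypes overlapped. Zbtb4 was higher in TMut than in WT by 0.58 ± 0.17 log2 units (interval 0.19 to 0.96, adjusted p = 0.0288), or 1.49-fold, and in TFoCa than in WT by 0.81 ± 0.17 (interval 0.42 to 1.20, adjusted p = 0.0257), or 1.75-fold. The TMut call was lost without TMut replicate 1 (0.34, adjusted p = 0.165), and leaving out WT replicate 1, WT replicate 2 or WT replicate 3 gave adjusted p values of 0.0545, 0.0763 and 0.0908. The TFoCa call was lost without TFoCa replicate 2 (0.68, adjusted p = 0.0846), and leaving out the WT libraries in the same order gave 0.0701, 0.0883 and 0.094. The log2 fold change of Zbtb4 in TMut versus TFoCa was -0.23 ± 0.18 (interval -0.66 to 0.19, adjusted p = 0.35). The sums of mesenchymal markers were likewise higher in all 4 mutant libraries than in WT. Of these 13 markers 8 rose in TMut relative to WT and 1, Col1a1, fell (-0.72), where 18.4% of all genes rose and 20.4% fell.

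Zbtb38, the remaining gene of the family, had 410 and 431 normalized counts in TMut, 482 and 360 in TFoCa, and 351, 380 and 389 in WT. Both TMut libraries lay just above WT and the TFoCa libraries lay on both sides of it. Its log2 fold change was 0.17 in TMut versus WT (interval -0.24 to 0.59, adjusted p = 0.477), 0.16 in TFoCa versus WT (interval -0.26 to 0.57, adjusted p = 0.627) and 0.01 in TMut versus TFoCa (interval -0.44 to 0.47, adjusted p = 0.967). These intervals are the widest of the 7 genes, and Zbtb38 has the fewest reads.

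Of 11 corepressors and partners of the Kaiso family, 1 rose and 1 fell in TMut relative to WT (median -0.15), 0 rose and 1 fell in TFoCa (median 0.03), and 2 rose and 1 fell in TMut relative to TFoCa (median -0.01). Of all genes, 18.4% rose and 20.4% fell in TMut relative to WT, 5.25% rose and 3.52% fell in TFoCa, and 17.3% rose and 18.5% fell in TMut relative to TFoCa. A model of the compared genotypes alone gave 2, 0 and 0 lower genes in these comparisons. In TFoCa versus WT 0 were lower with edgeR TMM factors, the edgeR test or limma-voom and 2 with DESeq2, and in TMut versus TFoCa 2 were lower after quantile normalization. With TFoCa replicate 1 or 2 left out, 2 fell in TMut relative to WT, and without TFoCa replicate 1, 1 rose in TFoCa. Ctnnd1 encodes p120 catenin, the cadherin partner that binds Kaiso. It had 2709 and 3036 normalized counts in TMut, 1660 and 1588 in TFoCa, and 1512, 1414 and 1340 in WT. Ctnnd1 rose by 1.01 ± 0.11 log2 units in TMut relative to WT (adjusted p = 0.000455) and by 0.82 ± 0.12 relative to TFoCa (adjusted p = 0.00297), and it passed under every alternative in both comparisons. Of the 3 genotypes, TMut had the highest Ctnnd1 and the lowest Zbtb33. Ctbp1, a corepressor, fell in TMut (-0.38 ± 0.10, adjusted p = 0.0244), with the call lost without any TMut or WT library (adjusted p up to 0.142). Sin3b, a scaffold of histone deacetylase complexes, fell in TFoCa (-0.41 ± 0.10, adjusted p = 0.0403), with the call lost without any 1 of the 7 libraries (adjusted p up to 0.12). It was higher in TMut than in TFoCa (0.53 ± 0.11, adjusted p = 0.00852, and 0.0526 without TMut replicate 2). Ncor1, the corepressor that Kaiso binds, fell in TMut relative to TFoCa (-0.56 ± 0.16, adjusted p = 0.031). Ncor1 lost this call without either TMut library, TFoCa replicate 2, WT replicate 2 or WT replicate 3 (adjusted p up to 0.145), and without TFoCa replicate 1 or WT replicate 1 the list had 2 lower genes.

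Ctcf was lower in both mutant genotypes by nearly the same amount. It had 4342 and 4478 normalized counts in TMut, 4329 and 4673 in TFoCa, and 6526, 5891 and 6496 in WT. Every mutant library lay below every WT library, and TMut lay within the range of TFoCa. Ctcf fell by 0.51 log2 units in TMut relative to WT (SE 0.09, interval -0.73 to -0.30, adjusted p = 0.00425), to 70.0% of the WT mean, and passed under all 18 alternatives. It fell by 0.49 log2 units in TFoCa relative to WT (SE 0.09, interval -0.70 to -0.27, adjusted p = 0.0203), to 71.4% of the WT mean. The TFoCa call was lost without TFoCa replicate 1 (-0.43, adjusted p = 0.0511). Leaving out WT replicate 1, WT replicate 2 or WT replicate 3 moved it to -0.46, -0.53 and -0.46, with adjusted p values of 0.0663, 0.0573 and 0.0866. In TMut versus TFoCa the log2 fold change was -0.03 ± 0.10, and the interval of -0.26 to 0.21 bounds the difference that these libraries allow (adjusted p = 0.848). Sums of neural stem cell markers were, like Ctcf, lower in all 4 mutant libraries than in WT, whereas sums of replication genes were below WT in both TFoCa libraries and overlapped with WT in TMut.

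Of 16 genes encoding cohesin, its regulators and other loop factors, 0 rose and 8 fell in TMut relative to WT (median -0.34). Of all genes tested, 18.4% rose and 20.4% fell. The count of genes that rose in TMut was not 0 under every alternative. In TFoCa 0 rose and 3 fell (median -0.23), where 5.25% of all genes rose and 3.52% fell, and 5 fell with DESeq2. Rad21, a cohesin ring subunit, had 10105 and 9918 normalized counts in TMut, 13022 and 12354 in TFoCa, and 14680, 14774 and 14841 in WT. Rad21 fell by 0.56 log2 units in TMut relative to WT (SE 0.08, adjusted p = 0.0018). Also lower in TMut were Maz (-0.67 ± 0.10, adjusted p = 0.00174) and Zfp143 (-0.72 ± 0.13, adjusted p = 0.00405), zinc finger factors found at promoters and loop anchors, and Nipbl (-0.47 ± 0.09, adjusted p = 0.00544), the cohesin loader. These 4 genes passed under every alternative, while the count of genes that fell was 5 without TMut replicate 1, WT replicate 2 or WT replicate 3. The 3 genes that fell in TFoCa were Esco2 (-1.07 ± 0.13, adjusted p = 0.00506) and Cdca5 (-0.82 ± 0.15, adjusted p = 0.0191), which act on cohesin in S phase, and Smc3 (-0.40 ± 0.09, adjusted p = 0.0328), a ring subunit. Esco2 passed under every alternative. Cdca5 did not pass without TFoCa replicate 1, WT replicate 2 or WT replicate 3 (adjusted p up to 0.0581), and Smc3 did not pass without either TFoCa library, WT replicate 2 or WT replicate 3 (adjusted p up to 0.132), so that the count was 1 without WT replicate 2 or 3. Sums of replication genes were lowest in the same TFoCa libraries. In TMut relative to TFoCa 2 genes of the list rose and 4 fell (median -0.07), where 17.3% of all genes rose and 18.5% fell, with Cdca5 (1.22 ± 0.17, adjusted p = 0.00271) and Esco2 (0.74 ± 0.14, adjusted p = 0.00757) higher in TMut. When only these 4 libraries were modelled, Esco2 did not pass, 1 gene rose and 0 fell. The count of 4 was 0 without TMut replicate 2 or WT replicate 2, 1 without TMut replicate 1 or WT replicate 3, and 2 without TFoCa replicate 1.

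**Figure D4:**
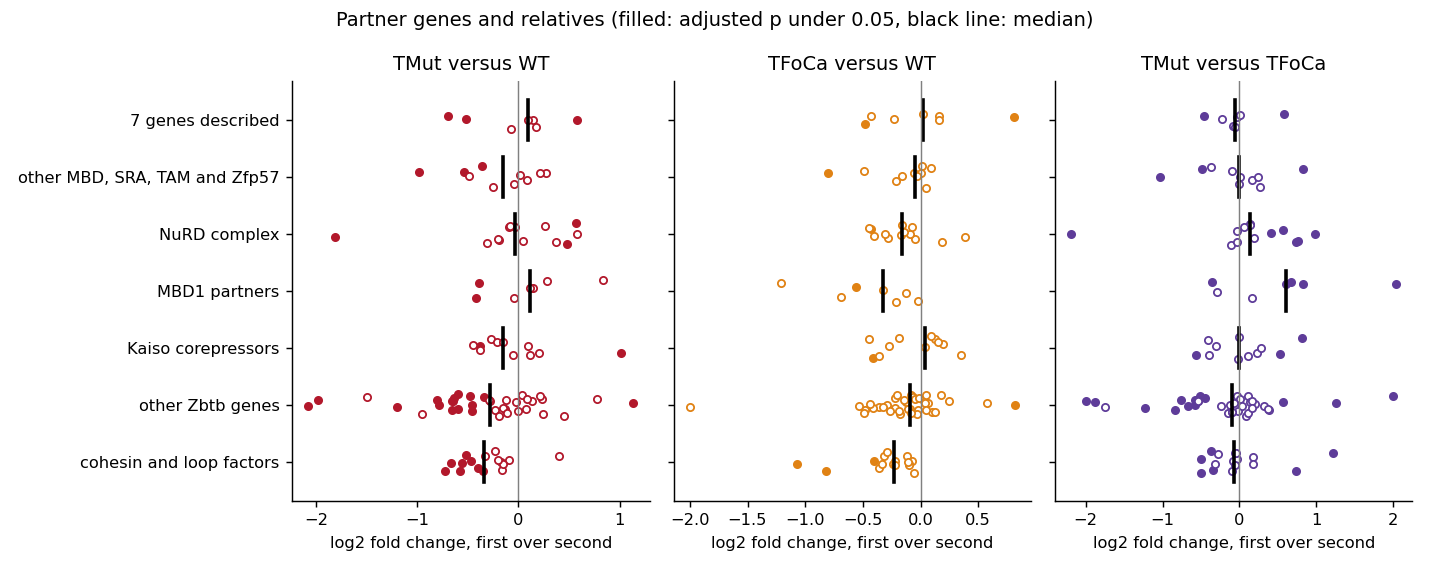
Log2 fold change of every measured gene of the 7 described and of the lists of partners and relatives, in the 3 comparisons; filled points have an adjusted p under 0.05 and the black line is the median of the list. The cohesin and loop factor list has its median at -0.34 in TMut versus WT and at -0.23 in TFoCa versus WT, and the NuRD list has its single gene below -1 in TMut, Chd5.

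Genes with the most similar profile were sought among 13191 genes with a mean normalized count of 100 or more, by the root mean square difference over the 7 libraries after subtracting each gene's WT mean. Nearest to Ctcf was Smarca5, a chromatin remodelling ATPase, at 0.04 log2 units, followed by Homez at 0.05. Smarca5 averaged 8383 normalized counts in TMut, 8610 in TFoCa and 11719 in WT. Nearest to Zbtb33 were Dcun1d4 at 0.04 and Top2b, a DNA topoisomerase gene, at 0.05, and Top2b averaged 9055 in TMut, 12628 in TFoCa and 14573 in WT. Nearest to Mbd3 were Def8 at 0.05 and Fam32a at 0.06. Zbtb4 had no profile as close, with Rtl8b at 0.09 and Sptbn1, a spectrin gene, at 0.11. The nearest genes to Mbd1 were Bod1l (0.03) and Wdr11 (0.04), to Mbd2 Sec63 (0.06) and Hemk1 (0.06), and to Zbtb38 Cert1 (0.03) and Vps13d (0.04). These distances describe the 7 libraries only.

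**Figure D5:**
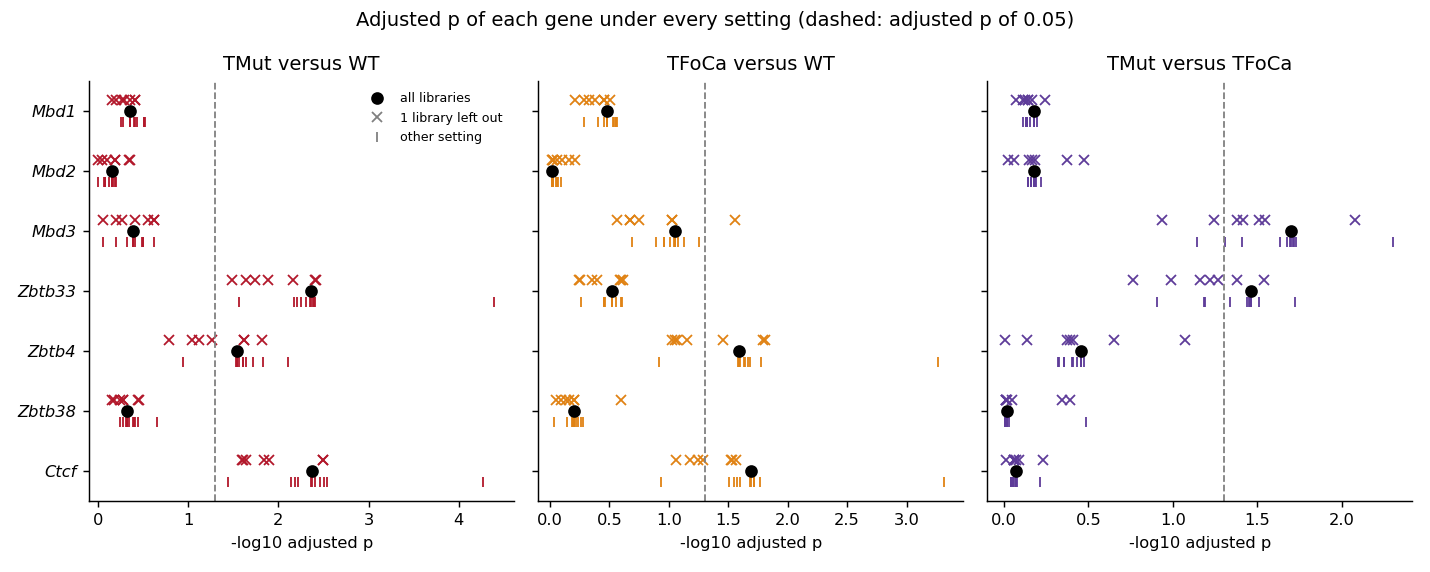
Minus log10 adjusted p of each gene in the 3 comparisons, with all libraries (black), with 1 library left out (crosses) and under each other setting (bars); the dashed line marks an adjusted p of 0.05. Zbtb33 and Ctcf stay right of the line in TMut versus WT under all 18 alternatives, whereas the points of Zbtb4 in both mutant genotypes and of Ctcf in TFoCa lie on both sides of it.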

How the data were processed

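The authors deposited a normalized signal per gene: reads divided by a size factor of the library, which equals the DESeq2 factor recomputed here. The submitters' processing notes name STAR 2.7.3a, Trim Galore 0.6.5, SAMtools, featureCounts, DESeq2 and build mm39; settings, strand and annotation are not given in the sources used here. Whole reads were recovered within 0.001 read for every value. Among values of 1 to 20 reads the share of even numbers was 70.3% to 79.3%, which counting both mates of a pair would give; this was not tested, and it would make count models overstate precision.

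Genes were kept if 2 or more libraries reached a normalized count of 10, and tested by limma 3.58.1 (R 4.3.3) with an intensity trend on log2 values with a pseudocount of 1, in 1 model over the 3 genotypes, and p values were adjusted by Benjamini-Hochberg over all 18134 genes. Alternatives on the recovered reads were DESeq2 1.42.0, edgeR 4.0.16 and limma-voom; limma-voom was added after the data were seen. The other alternatives were other pseudocounts, filters and normalizations, a fit to the compared genotypes, a replicate block and each library left out. The fitting code was tested on simulated data. Each library is a line, so p values measure the spread between lines.

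The 7 genes, the lists of partners and markers, the tests and the naming rule were chosen with earlier results of these data known. The rule takes the 7 genes, up to 4 genes per list and comparison by adjusted p, and the 2 nearest profiles per gene. The text names a part of these. Eif2s3y, Xist and, in TMut versus TFoCa, Atf7ip were added after their values were seen. Tet1, Tet2, Tet3, Vim and, in TMut versus WT, Col1a1 are also named outside this rule. No list was tested as a set; the shares of all genes called stand beside its counts. Exon lengths come from GENCODE M21 and promoters from RefSeq, both on GRCm38; RefSeq promoters were matched for 5 of the 7 genes.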

Additional observations from a re-analysis of the deposited data

How the results depend on the processing

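Of 378 values (7 genes, 3 comparisons, 18 alternatives), 340 kept their direction and their side of the threshold, 26 kept their direction but lost the call, 1 gained it and 11 changed sign. Every change of sign was in a result without a call. With 1 library left out the log2 fold change then ranged, in TMut versus WT, from -0.18 to 0.036 for Mbd2 (above 0 without TMut replicate 2). In TFoCa versus WT it ranged from -0.11 to 0.14 for Mbd2 (below 0 without TFoCa replicate 1 or WT replicate 1) and from -0.050 to 0.37 for Zbtb38 (below 0 without TFoCa replicate 1). In TMut versus TFoCa it ranged from -0.21 to 0.036 for Mbd2 (above 0 without TMut replicate 2 or TFoCa replicate 1), from -0.47 to 0.0044 for Zbtb4 (above 0 without TMut replicate 2), from -0.20 to 0.22 for Zbtb38 (below 0 without TMut replicate 2 or TFoCa replicate 2, and -0.0047 with DESeq2) and from -0.084 to 0.027 for Ctcf (above 0 without TFoCa replicate 2). With 1 library left out, 2 to 3 of the 7 genes were called in TMut versus WT, 0 to 2 in TFoCa versus WT and 0 to 2 in TMut versus TFoCa. Over all genes the calls then ranged from 4329 to 8127 (7043 with all libraries), from 495 to 1768 (1590) and from 3164 to 5940 (6491). In TMut versus TFoCa, 1 of the 7 genes was called with quantile normalization and 0 in a fit to the 2 genotypes, where 3419 genes were called in all. DESeq2 called 2947 genes in TFoCa versus WT. With the replicate number as a block, 4620 genes were called in TMut versus WT and 555 in TFoCa versus WT, and 2, 0 and 1 of the 7 genes in TMut versus WT, TFoCa versus WT and TMut versus TFoCa. The calls lost with the block were Zbtb4 in TMut (adjusted p = 0.115) and in TFoCa (adjusted p = 0.121) against WT, Ctcf in TFoCa against WT (adjusted p = 0.116) and Zbtb33 in TMut against TFoCa (adjusted p = 0.0657); the block leaves fewer residual degrees of freedom. Deviations from the group means correlated by 0.0192 to 0.185 across genes between libraries of the same number. The 2 deviations of a mutant genotype are mirror images, so these values cannot tell whether such libraries share a batch. Each of the 7 genes had 296 or more reads in every library, while each genotype had 2 or 3 lines, which limits the precision. The cause of the other changes was not tested.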

Other observations

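The other 37 Zbtb genes, which share the BTB and zinc finger architecture of the Kaiso family, gave 1 higher and 15 lower in TMut than in WT (median log2 fold change -0.28), against 1 higher and 0 lower in TFoCa than in WT (median -0.09). Between TMut and TFoCa 3 were higher and 12 lower in TMut (median -0.09). Of all genes tested, 18.4% were higher and 20.4% lower in TMut than in WT, 5.25% and 3.52% in TFoCa than in WT, and 17.3% and 18.5% in TMut than in TFoCa. Zbtb20, a repressor known from the developing hippocampus and from astrocytes, had 228 and 186 normalized counts in TMut, 843 and 691 in TFoCa, and 781, 856 and 987 in WT. It fell by 2.07 log2 units in TMut relative to WT (SE 0.18, adjusted p = 0.00022) and fell by 1.88 relative to TFoCa (SE 0.19, adjusted p = 0.00157). Zbtb18, a transcriptional repressor needed for development of the cortex, had 1918 and 1147 normalized counts in TMut, 4340 and 8040 in TFoCa, and 5510, 5697 and 6426 in WT, and it fell by 1.99 in TMut relative to TFoCa (SE 0.31, adjusted p = 0.00383). Both genes passed in these comparisons under every alternative, and their TMut libraries lay below all others. Leaving out TMut replicate 2, WT replicate 3 or WT replicate 2 gave 6, 8 and 9 lower genes in place of 15 in TMut versus WT, and 2 were higher without TMut replicate 1. In TFoCa versus WT 2 were lower without either TMut library, and 0 were higher without either TFoCa library, WT replicate 1 or WT replicate 3. In TMut versus TFoCa 7 were lower without TMut replicate 2, 0 were higher without TMut replicate 2 or TFoCa replicate 2, and 1 was higher without TFoCa replicate 1, WT replicate 2 or WT replicate 3. A model of the compared genotypes alone gave 0 higher and 5 lower in TMut versus TFoCa, and 1 was higher there with limma-voom. DESeq2 gave 2 higher and 3 lower in TFoCa versus WT, where such a model gave 2 lower and quantile normalization 1 lower. In TMut versus WT 2 were higher with the edgeR test or DESeq2.

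Zbtb7b, known for its part in T cell fate, was the Zbtb gene outside the Kaiso family that was higher in both mutant genotypes, as Zbtb4 was. It had 1762 and 2222 normalized counts in TMut, 1557 and 1616 in TFoCa, and 863, 1068 and 791 in WT, so that no mutant library overlapped with WT. It rose by 1.14 ± 0.16 log2 units in TMut (adjusted p = 0.00153) and by 0.82 ± 0.16 in TFoCa (adjusted p = 0.0231). The TFoCa call was lost without either TFoCa library, WT replicate 1 or WT replicate 3 (adjusted p up to 0.0816).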
